A study of Mus musculus with 20 samples.

Results

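The compounds described here are short glycans that end in a galactose bound directly to a second galactose or to a glucose. They were chosen by structure alone: a terminal β-galactose directly on Gal or Glc, not on GalNAc or GlcNAc, with no fucose, mannose, sulfate or sialic acid in the chain. The rule finds 22 of the 419 compounds of the array, 2 with a terminal 1-2, 3 with a 1-3, 15 with a 1-4 and 2 with a 1-6 linkage. A member, Galβ1-4Galβ1-4Glcβ-sp2, has no spots under its number on the arrays, and 1 printed number has no structure in the authors' list. They were not matched with each other, so 21 members were measured, 14 of them with the 1-4 linkage. Each was printed through a short amine spacer, which is aminoethyl (sp2), aminopropyl (sp3) or glycyl (sp4), or through a dipeptide. The list gives all 8 dipeptide forms as Galβ1-4Glcβ-dipeptide, the residues are not given in the sources used here, and these forms are told apart below by their medians.

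Natural antibodies circulate without known immunisation, are largely IgM and often recognise sugars of plants and microbes. Galactose can be joined to the sugar below it through any of several hydroxyl groups, and each linkage presents the terminal residue at another angle. Lactose, Galβ1-4Glc, is the sugar of milk and the base of most animal glycolipids, and a further galactose turns it into a galactosyllactose. Galactose in β1-4 linkage builds the galactan of plant pectin, and galactose in β1-6 linkage the side chains of plant arabinogalactans. Plasmacytomas of BALB/c mice have long been known as a source of myeloma proteins that bind β1-6 galactan.

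Serum of BALB/c mice aged 10 weeks, an inbred strain kept specific pathogen free, was diluted 1:15, put on 1 array per mouse, and stained for bound IgG and IgM together with a biotin-labelled goat antibody and streptavidin-Cy5. No mouse was treated, and sex is the group that the labels give. Signal is given in relative fluorescence units (RFU), the mean pixel intensity of a spot, of which the median of 6 spots was taken, and 4000 RFU or more counts as bound. IgM and IgG cannot be told apart. Of 20 arrays, those of females 7 and 8 carry the same intensity in 2664 of 2664 spots and were counted once, which leaves 12 females and 7 males (numbered as replicates in accession order, with female 8 left out). The label of each compound carries the same printing code, so that all pairs below were read at the same printing and serum dilution.

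The arrays differ in overall level in a way that touches most of the faint members. The median over the printing buffer spots ran from 93.5 to 2044.5 RFU and the median over all compounds from 126.5 to 1504.5 RFU. The arrays were split by the ratio of 2 printed peptides, a crypted peptide over the linear Gly6 amide. It was at least 0.631 on 9 arrays (7 females, 2 males) and at most 0.0561 on the other 10 (5 females, 5 males). The second set was brighter. Serum bound both peptides, the crypted peptide in 5 of 19 mice and the Gly6 amide in 15 of 19. Each array was read in 24 grids of spots, and on 5 arrays of the higher-ratio set 14 grids in all lie over 500 µm from their median place. These grids hold 2 of the 6 spots of 8 members, among them 6 of the dipeptide compounds, and values without them are given where they matter. Nothing says how the arrays of the 2 sets differ in handling, and its part in the results was not tested.

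Both 1-6-linked members were bound in most mice and were the only members with a median at or above 4000 RFU. Across all 419 compounds, 8.11% reached that median. Galβ1-6Galβ1-4Glcβ-sp4, the 1-6 galactosyllactose, stood at a median of 60328.5 ± 1150.5 RFU (MAD, n = 19), with 19 of 19 mice bound (exact binomial 95% interval from 82.4%), against 2.15% of all compounds bound in every mouse. Galβ1-6Galβ-sp4, called the 1-6 digalactose below, stood at 12235.5 ± 8622 RFU, with 14 of 19 mice bound (73.7%, interval 48.8 to 90.9%). Of the other 19 measured members, 3 were bound in at least 1 mouse and 16 in none (0 of 19 mice, interval up to 17.6%), and their medians ran from 274.5 to 1392.5 RFU. In all, 5 of 21 members were bound in at least 1 mouse, where 54.9% of all compounds were.

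**Figure D1:**
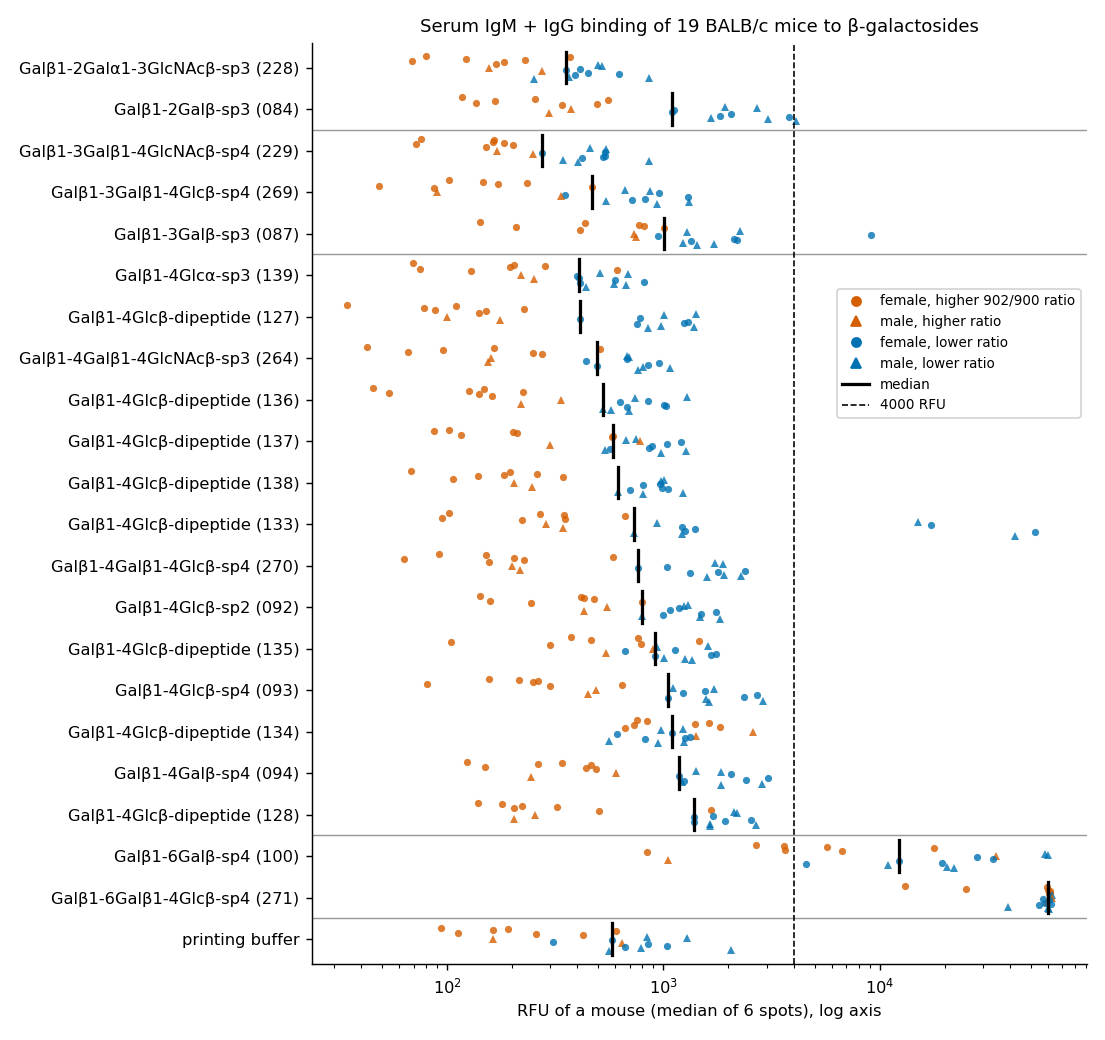
RFU of each of 19 mice (log axis) for the 21 measured members, grouped by terminal linkage (1-2, 1-3, 1-4, 1-6 from the top), with printing buffer in the last row. Circles are females, triangles males, colours the 2 sets of arrays, bars the medians, and the dashed line marks 4000 RFU. Numbers in parentheses are those of the array. The 2 members with a 1-6 linkage have medians of 12235.5 and 60328.5 RFU, and the medians of the other 19 stay between 274.5 and 1392.5 RFU.

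The 1-6 galactosyllactose was close to the top of the scanner's range in nearly all sera. In the higher-ratio set it read 13131 RFU in female 1, 25140.5 in female 3, 59339.5 in male 7, 59547 in female 2, 60328.5 in female 4, 60643 in female 7, 61210.5 in female 5, 61227 in female 6 and 62813.5 in male 1. In the lower-ratio set it read 39223 RFU in male 4, 54515 in female 11, 56671.5 in female 12, 58430.5 in female 9, 59884.5 in male 5, 60429.5 in male 6, 60566.5 in female 13, 61479 in male 3, 62008 in female 10 and 62817 in male 2. Only female 1, female 3 and male 4 fell clearly below the rest, and the 2 sets overlapped. Saturated pixels occurred in 90 of its 114 spots, so that its level is a lower limit. The 6 spots of female 1 ran from 8593 to 57049 RFU, a wide spread within 1 array.

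The 1-6 digalactose varied far more between mice. Its values in the higher-ratio set were 844 RFU in female 7, 1055 in male 7, 2692.5 in female 1, 3613.5 in female 2, 3655 in female 5, 5722.5 in female 3, 6695.5 in female 6, 17853 in female 4 and 34355.5 in male 1. Its values in the lower-ratio set were 4565.5 RFU in female 11, 10955.5 in male 4, 12235.5 in female 9, 19468.5 in female 10, 20444.5 in male 5, 22029 in male 6, 28323.5 in female 12, 33366.5 in female 13, 58021.5 in male 2 and 59967 in male 3. It was bound in 4 of 9 mice of the higher-ratio set and in 10 of 10 of the other, and the values of the sets overlapped. Its standard deviation over mice was 1.81 on the log2 scale, against 0.57 for the galactosyllactose, most of whose spots held saturated pixels. Its brightest mice, males 2 and 3, read nearly as high on it as on the galactosyllactose, whereas female 7 had 844 RFU on the disaccharide and 60643 RFU on the trisaccharide.

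The effect of linkage was compared most directly between the galactosyllactoses, which differ only in the position at which the terminal galactose is joined to lactose-sp4. Galβ1-4Galβ1-4Glcβ-sp4, the 1-4 isomer, had a median of 759.5 ± 607.5 RFU. On the higher-ratio arrays it read 63 RFU in female 5, 91.5 in female 1, 152 in female 2, 155.5 in female 7, 199 in male 1, 204.5 in female 4, 217.5 in male 7, 227 in female 6 and 583.5 in female 3. On the lower-ratio arrays it read 759.5 RFU in female 13, 1035 in female 12, 1330.5 in female 11, 1584 in male 6, 1730 in male 2, 1785 in female 10, 1883 in male 3, 1912.5 in male 4, 2287 in male 5 and 2372.5 in female 9. No mouse reached 4000 RFU, and the lower-ratio arrays were all above the others. The buffer median was also higher in that set, at 810.5 against 191.5 RFU (medians over arrays).

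Galβ1-3Galβ1-4Glcβ-sp4, the 1-3 isomer, was fainter still, with a median of 465.5 ± 360 RFU. Its values in the higher-ratio set were 48.5 RFU in female 5, 87 in female 7, 89.5 in male 1, 102 in female 1, 146.5 in female 2, 172.5 in female 4, 235 in female 3, 336.5 in male 7 and 465.5 in female 6. Its values in the lower-ratio set were 351 RFU in female 13, 545 in male 4, 665 in male 2, 719.5 in female 11, 825.5 in female 10, 870.5 in male 3, 933 in male 6, 953.5 in female 12, 1298.5 in female 9 and 1314.5 in male 5. It lay at or below the buffer median of the array in 11 of 19 mice, and the 1-4 isomer did so in 7. In the higher-ratio set the medians were 199 RFU (1-4) and 146.5 RFU (1-3), near the 191.5 RFU of buffer. In the lower-ratio set they were 1757.5 and 848 RFU, against 810.5 RFU for buffer. The negative control of the list, trehalose-ethanolamine, read 55 to 914 RFU in the higher-ratio set. It read 115.5 to 375 RFU in the lower-ratio set, below the 1-4 isomer on every array there.

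Pairs of related compounds were compared within mice as differences in log2 RFU, with values set to at least 100 RFU, a two-sided permutation test of 100000 sign flips, and Benjamini-Hochberg adjustment over the 30 pairs measured. Of these, 20 passed an adjusted p of 0.05, and 18 did so when every signal under the buffer median of its array was raised to that median. The 1-6 galactosyllactose exceeded its 1-4 isomer by 6.49 in mean log2 RFU (95% interval 5.69 to 7.30), and was brighter in 19 of 19 mice (adjusted p = 6.0e-05, permutation test). Against the 1-3 isomer the difference was 7.10 (6.47 to 7.73), again in 19 of 19 mice and with the same adjusted p. With signals raised to the buffer median, the differences amounted to ratios of 74.3 and 100.5. The difference from the 1-4 isomer was 7.96 in the higher-ratio set and 5.17 in the lower-ratio set, where the faint partner was brighter. A small difference separated the faint isomers, at -0.61 for the 1-3 minus the 1-4 isomer (-0.95 to -0.26, the 1-3 isomer brighter in 3 of 19 mice, adjusted p = 0.0054, permutation test). It was -0.17 (adjusted p = 0.599) within the higher-ratio set and -1.0 within the other (adjusted p = 0.0039, exact and permutation tests, n = 9 and n = 10).

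**Figure D2:**
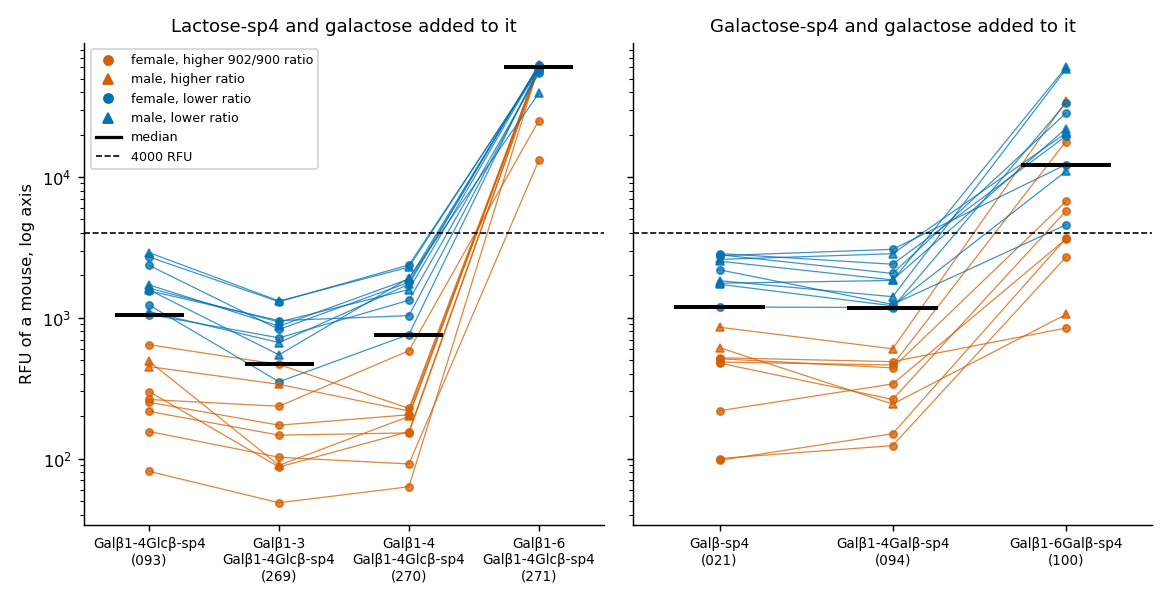
RFU (log axis) of lactose-sp4 and its 3 galactosylated forms, left, and of galactose-sp4 and its 1-4 and 1-6 galactosylated forms, right, with a line for each of 19 mice, circles for females, triangles for males, colours for the sets of arrays, and bars for medians. Every line rises to the 1-6 form, and no mouse reaches the dashed line at 4000 RFU with the 1-3 or 1-4 forms.

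The disaccharides on galactose gave the same order. Galβ1-4Galβ-sp4, the 1-4 digalactose, had a median of 1181.5 ± 741 RFU. It read, on the higher-ratio arrays, 123.5 RFU in female 1, 150 in female 5, 243.5 in male 7, 263 in female 3, 338.5 in female 2, 440.5 in female 6, 461.5 in female 4, 487.5 in female 7 and 601.5 in male 1. It read, on the lower-ratio arrays, 1181.5 RFU in female 13, 1215 in male 4, 1243 in female 11, 1410.5 in male 2, 1839.5 in male 3, 1856 in male 6, 2063.5 in female 12, 2398 in female 10, 2848 in male 5 and 3061.5 in female 9. None was bound, and female 9, the brightest here, ranked below 7 other lower-ratio arrays for the 1-6 form. The 1-6 form exceeded the 1-4 form by 3.70 in log2 RFU (3.04 to 4.36, a ratio of 13.0, brighter in 19 of 19 mice, adjusted p = 6.0e-05, permutation test), with 3.87 and 3.55 in the higher-ratio and lower-ratio sets.

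The 1-2 and 1-3 forms were printed on another spacer, sp3, and among the disaccharides were compared only with each other. Galβ1-2Galβ-sp3 ran from 117.5 to 4106 RFU with a median of 1098.5, and male 6 alone bound it, just past the threshold. Galβ1-3Galβ-sp3 ran from 142 to 9095.5 RFU with a median of 1009.5, and female 12 alone bound it. The mean difference of the 1-3 minus the 1-2 form was 0.32, with an interval from -0.24 to 0.88 (adjusted p = 0.294, permutation test), so that a difference of the size seen between the 1-4 and 1-6 forms lies outside the interval. Within the higher-ratio set the 1-3 form was the brighter of the pair by 0.89 (adjusted p = 0.0107, exact sign-flip permutation test, n = 9), and within the other set the difference was -0.20. The 1-2 linkage occurs in 1 further member, Galβ1-2Galα1-3GlcNAcβ-sp3, which read 69 to 856.5 RFU and lay at or below the buffer median in 17 of 19 mice.

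Adding a galactose to a shorter compound was compared for each linkage. Against the monosaccharide Galβ-sp4, which ran from 97 to 2856.5 RFU with a median of 1191.5, the 1-6 disaccharide was higher by 3.49 (2.75 to 4.23) in 19 of 19 mice, with an adjusted p of 6.0e-05 by the permutation test. The 1-4 disaccharide differed from it by -0.21 (-0.45 to 0.02, adjusted p = 0.101). On lactose-sp4, Galβ1-4Glcβ-sp4, which ran from 81 to 2898.5 RFU with a median of 1054, the 1-6 galactose gave 6.18 (5.51 to 6.85) and the 1-4 galactose -0.31 (-0.63 to 0.01, adjusted p = 0.080). The 1-3 galactose gave -0.92 (-1.21 to -0.63), brighter than lactose in 0 of 19 mice, with an adjusted p of 6.0e-05. On sp3, both the 1-2 and the 1-3 disaccharide differed from the monosaccharide Galβ-sp3, by -2.71 and -2.39 in log2 RFU (adjusted p = 1.0e-04 and 8.18e-05, permutation test), and each was the brighter of its pair in 1 of 19 mice. Galβ-sp3 differs from Galβ-sp4 only in the spacer, and was bound in 11 of 19 mice where Galβ-sp4 was bound in 0.

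The chain below the terminal galactose was compared next. Lengthening Galβ1-6Galβ to Galβ1-6Galβ1-4Glcβ on sp4 raised the signal by 2.35 in log2 RFU (1.53 to 3.19, a ratio of 5.11) and did so in 19 of 19 mice (adjusted p = 6.0e-05, permutation test). The difference was 3.37 in the higher-ratio set and 1.44 in the lower-ratio set. It ran from 0.04 in male 3, where both compounds were near the top of the scale, to 6.17 in female 7. For the 1-4 linkage the same lengthening gave -0.44 (-0.79 to -0.09, adjusted p = 0.027), and -0.26 with an adjusted p of 0.122 once signals were raised to the buffer median. Exchanging the glucose of lactose-sp4 for galactose gave 0.13 (-0.09 to 0.34, adjusted p = 0.282). The 1-3 galactosyllactose minus its GlcNAc form, Galβ1-3Galβ1-4GlcNAcβ-sp4, gave 0.43 (0.15 to 0.71, adjusted p = 0.0095), which became 0.23 with an adjusted p of 0.258 without the displaced grids. The 3 members that contain GlcNAc had medians of 353 RFU (1-2 linkage), 274.5 RFU (1-3) and 494.5 RFU (1-4), and none exceeded 1078 RFU in any mouse. The first and second were the faintest of their linkage, and 2 lactose forms were fainter than the last.

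What stood at the end of the chain was compared on the same scaffolds. The outer galactose of the 1-6 galactosyllactose and the Neu5Ac, a sialic acid, of Neu5Acα2-6Galβ1-4Glcβ-sp4 occupy the same position of lactose, and the galactose form was higher by 7.5 (7.0 to 8.0, a ratio of 181) in 19 of 19 mice (adjusted p = 6.0e-05, permutation test). The Neu5Ac form lay at or below the buffer median in 17 of 19 mice, and with signals raised to that median the difference was 6.83, a ratio of 113.5. For the 1-3 linkage, the β form differed from the α form Galα1-3Galβ1-4Glcβ-sp4, an epitope that mice make themselves, by -1.21 (-2.07 to -0.35, adjusted p = 0.012). That difference was -2.69 in the higher-ratio set and 0.13 (adjusted p = 0.293) in the lower-ratio set. The β form on LacNAc, Galβ1-4Galβ1-4GlcNAcβ-sp3, differed from its α counterpart by -0.99 (-1.68 to -0.31, adjusted p = 0.0076), and brighter in 2 of 19 mice. Its difference from LacNAc-sp3, which lacks the terminal galactose, was -0.01 (-0.44 to 0.42, adjusted p = 0.981). Lactose-sp4 differed from Glcβ-sp4 by -0.35 (-0.66 to -0.04, adjusted p = 0.043), which lost the call at the buffer level (adjusted p = 0.121).

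**Figure D3:**
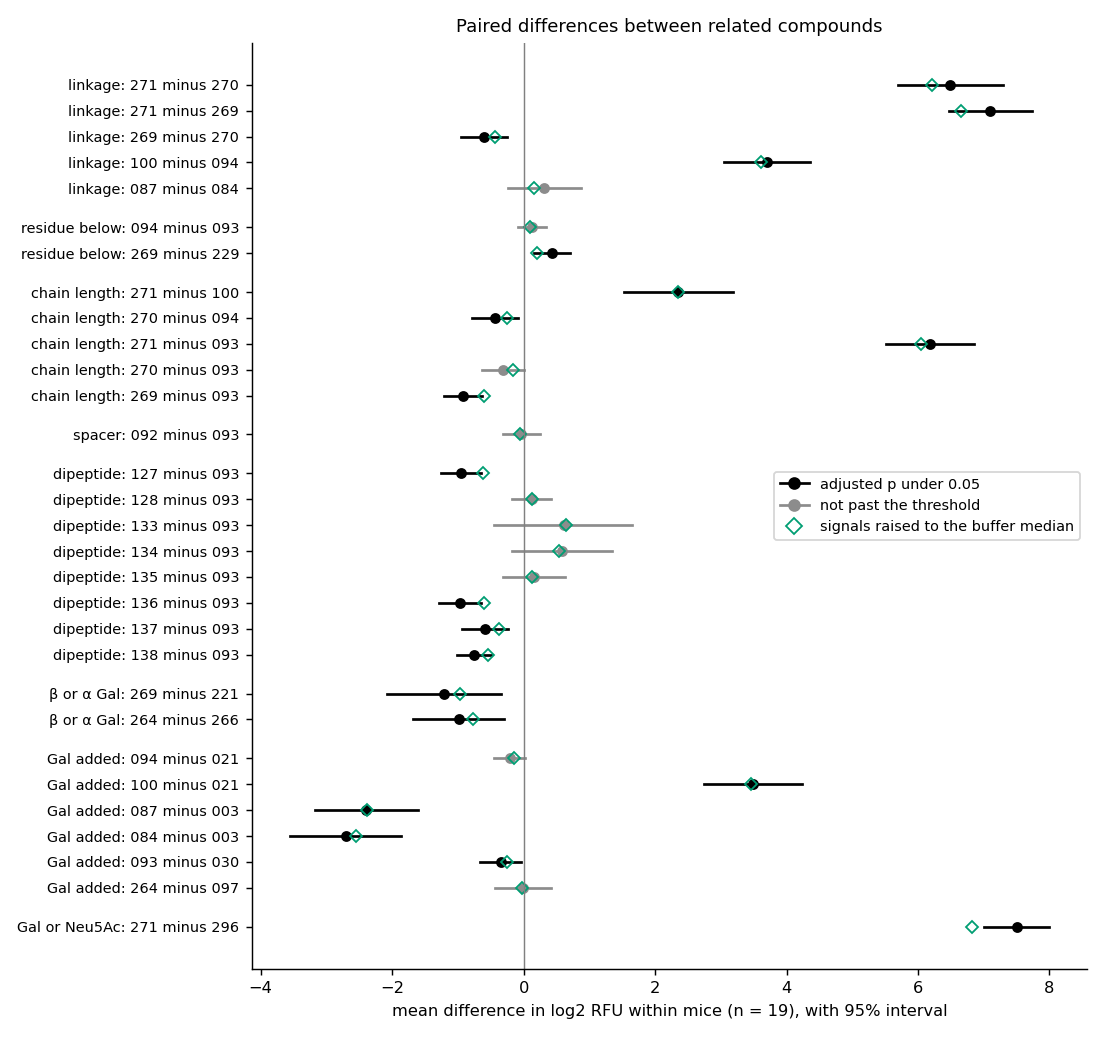
Mean difference in log2 RFU within 19 mice for the 30 pairs, with 95% intervals from the sign-flip test, grouped by the change in structure. Filled black points passed an adjusted p of 0.05, grey points did not, and green diamonds give the difference with signals raised to the buffer median. All 7 pairs that compare a 1-6 member with another compound lie at 2.35 or above, and the highest of the other pairs lies at 0.61.

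Lactose itself was printed in 11 forms, which share the disaccharide and differ in spacer, carrier or the anomer at glucose. On the simple spacers, Galβ1-4Glcβ-sp2 and Galβ1-4Glcβ-sp4 had medians of 794 ± 384 and 1054 ± 655.5 RFU and differed by -0.04 (-0.32 to 0.24, adjusted p = 0.802). Galβ1-4Glcα-sp3, the α anomer, had a median of 406 RFU, a highest value of 817 RFU in female 10, and was at or below the buffer in 14 of 19 mice. On dipeptides, 4 of 8 forms differed from lactose-sp4, all of them lower. The differences were -0.95, -0.96, -0.59 and -0.75 for the forms with medians of 413, 524, 583 and 616 RFU, with adjusted p-values from 6.0e-05 to 0.0056 (permutation test). For the forms with medians of 1392.5, 735, 1096 and 917.5 RFU the differences were 0.12, 0.61, 0.58 and 0.15, with adjusted p-values from 0.162 to 0.558. Leaving out the displaced grids changed none of these 8 calls. With the mean of the spots in place of their median, the form with the median of 583 RFU gave -0.40 (adjusted p = 0.272), and it gave -0.14 (adjusted p = 0.599, exact permutation test, n = 9) within the higher-ratio set.

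The dipeptide form with the median of 735 RFU stood out from the other 7 in single mice. It was bound in male 2 with 15039 RFU, in female 12 with 17199.5 RFU, in male 6 with 42189.5 RFU and in female 11 with 52465 RFU. In the other mice of the lower-ratio set it read 735 RFU in male 4, 930 in male 3, 1214 in female 13, 1224.5 in male 5, 1264.5 in female 10 and 1393.5 in female 9. On the 9 higher-ratio arrays its lowest, median and highest values were 95, 285.5 and 662 RFU. The 4 bound mice were 2 females and 2 males, and no value lay between 1393.5 and 15039 RFU. All 6 spots were bright in each of them, with the lowest at 13142 RFU. The other 7 dipeptide forms had medians from 413 to 1392.5 RFU and reached at most 2691 RFU in any mouse.

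A further compound, chosen after its values were seen, was bound in exactly the same 4 mice. GlcNAcβ1-6GalNAcα-sp3, the mucin core 6 structure, which has no galactose and no lactose, read 15945 RFU in male 2, 27427.5 in female 12, 45708 in male 6 and 50324.5 in female 11, and at most 3563 RFU in the others. It was the only such compound among the other 418. Both sit at the same row and column of neighbouring grids, and so does Galβ1-3Galβ-sp3, which was bound only in female 12. The compound at that place of the remaining grid was bound in no mouse. Over all compounds, the 600 pairs that share row and column had a median rank correlation of 0.25 (mean of the 2 sets), and the other 86971 pairs one of 0.22. The other 418 compounds were ranked only for the 1-6 digalactose, the 1-6 galactosyllactose and this dipeptide form. The compound with the highest mean rank correlation was at the same place for the last 2 of these, and not for the first. For the dipeptide form it was Galβ1-3Galβ-sp3 (0.74), and for the 1-6 galactosyllactose it was GlcNAcβ1-6(GlcNAcβ1-3)GalNAcα-sp3 (0.67), which was bound in 4 mice. The part of printing place in these signals was not tested.

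The dipeptide form with the median of 1096 RFU was the only member with a lower mean log2 RFU in the lower-ratio set. It read 666.5 to 2591 RFU in the higher-ratio set and 562.5 to 1333 RFU in the lower-ratio set, a difference of lower minus higher set of -0.29 in mean log2 RFU. The median of that difference was 2.23 over the 21 members and 1.56 over all compounds. Of the members, 9 were brighter on every array of the lower-ratio set than on any of the other, where 20.0% of all compounds were. The difference from lactose-sp4 was 2.10 in the higher-ratio set and -0.79 in the lower-ratio set. The form with the median of 917.5 RFU gave 0.88 and -0.51, and the differences of both forms passed within each set with opposite signs (adjusted p from 0.0072 to 0.022, permutation tests, n = 9 and n = 10).

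Between mice, the 1-6 digalactose followed the monosaccharide Galβ-sp3. Since the arrays fall into 2 sets, correlations of log2 RFU were taken within each, over 16 relations in all. This pair was added after the values were seen. Its adjusted p-values were taken over these 16 only, do not account for that choice and are no test of the pair. Over the higher-ratio arrays Pearson's r was 0.92 (adjusted p = 6.17e-04) and Spearman's rho 0.97 (adjusted p = 0.0020, exact permutation tests, n = 9). Over the lower-ratio arrays r was 0.90 (adjusted p = 0.0024) and rho 0.94 (adjusted p = 0.0020, permutation tests, n = 10). Without the 2 mice farthest from the median of the digalactose, r was 0.83 and 0.81. On the same values, Galβ-sp3 had the highest mean rank correlation with the digalactose among the other 418 compounds (0.95). GlcAβ1-6Galβ-sp3, a glucuronic acid in 1-6 linkage on galactose, followed with 0.68. The galactose on the other spacer, Galβ-sp4, had r of 0.27 and -0.30 with the digalactose in the 2 sets (adjusted p = 0.751 and 0.710, permutation tests, n = 9 and n = 10). The buffer spots had r of -0.20 and 0.06. The digalactose and Galβ-sp3 do not share a place in their grids.

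GlcAβ1-6Galβ-sp3 was itself bound in 16 of 19 mice, with a median of 44965 RFU and saturated pixels in 51 of 114 spots. In the lower-ratio set its rho with the 1-6 digalactose was 0.83 (adjusted p = 0.020) and its r 0.74 (adjusted p = 0.084, permutation tests, n = 10), and without male 3 and female 11 rho was 0.67 and r 0.305. Under quantile normalization this rho was 0.55 and its call was lost (unadjusted p = 0.106, permutation test). In the higher-ratio set rho was 0.53 (adjusted p = 0.295, exact permutation test, n = 9). The 1-6 galactosyllactose gave rho of 0.50 and 0.70 with the 1-6 digalactose (adjusted p = 0.308 and 0.099, permutation tests, n = 9 and n = 10), with 90 of its 114 spots holding saturated pixels.

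**Figure D4:**
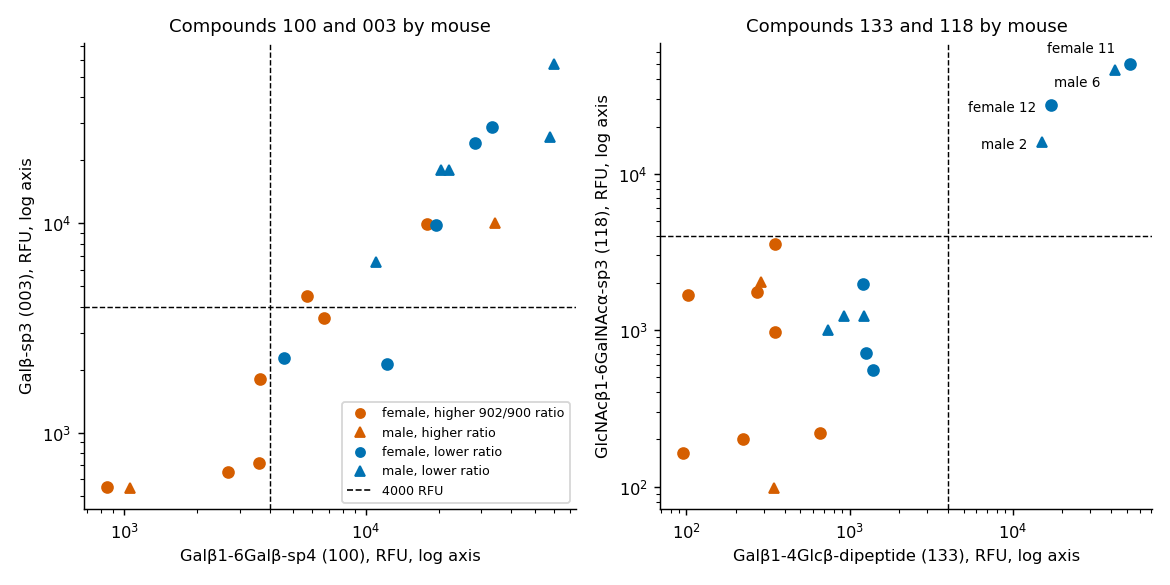
RFU of each mouse (both axes logarithmic, dashed lines at 4000 RFU, circles for females, triangles for males, colours for the sets of arrays). Left, Galβ-sp3 against Galβ1-6Galβ-sp4, which rise together within both sets. Right, GlcNAcβ1-6GalNAcα-sp3 against the dipeptide form of lactose, with 4 mice at 15039 RFU or more on both and the other 15 below the lines.

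Sex was compared with limma across all 419 compounds, as female minus male in mean log2 RFU. None of the 21 members passed an adjusted p of 0.05 (smallest adjusted p = 0.333, limma), and none had an unadjusted p under 0.05, where 1.67% of all compounds passed, 1.43% with lower means in females, and 17.4% had an unadjusted p under 0.05. All members had lower means in females, with differences from -1.33 to -0.20, and the median over all compounds was -0.75. The 1-6 digalactose was bound in 8 of 12 females and 6 of 7 males, with medians of 6209 ± 4440.75 and 22029 ± 12326.5 RFU and a difference of -1.32 (95% interval -2.83 to 0.20). The 1-6 galactosyllactose was bound in 12 of 12 females and 7 of 7 males, with a difference of -0.23 (-0.77 to 0.30). The higher-ratio set holds 7 of the 12 females and 2 of the 7 males. With the set as a term of the limma fit, the differences of the members ran from -0.71 to 0.09, and 0.477% of all compounds passed. With quantile normalization, 13 of 21 members had higher means in females, and the median over all compounds was 0.12.

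The paired differences were compared between the sexes with an exact permutation test of 50388 assignments. None of the 30 passed (smallest adjusted p = 0.480, none with an unadjusted p under 0.05). The difference of the 1-6 minus the 1-4 galactosyllactose was 6.87 in females and 5.85 in males, and that of the digalactoses was 3.53 and 3.99. When the sexes were permuted within the sets of arrays, again none passed, with 1 unadjusted p under 0.05, for Galβ1-4Galβ1-4GlcNAcβ-sp3 against its α counterpart (smallest adjusted p = 0.522, exact permutation test).

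**Figure D5:**
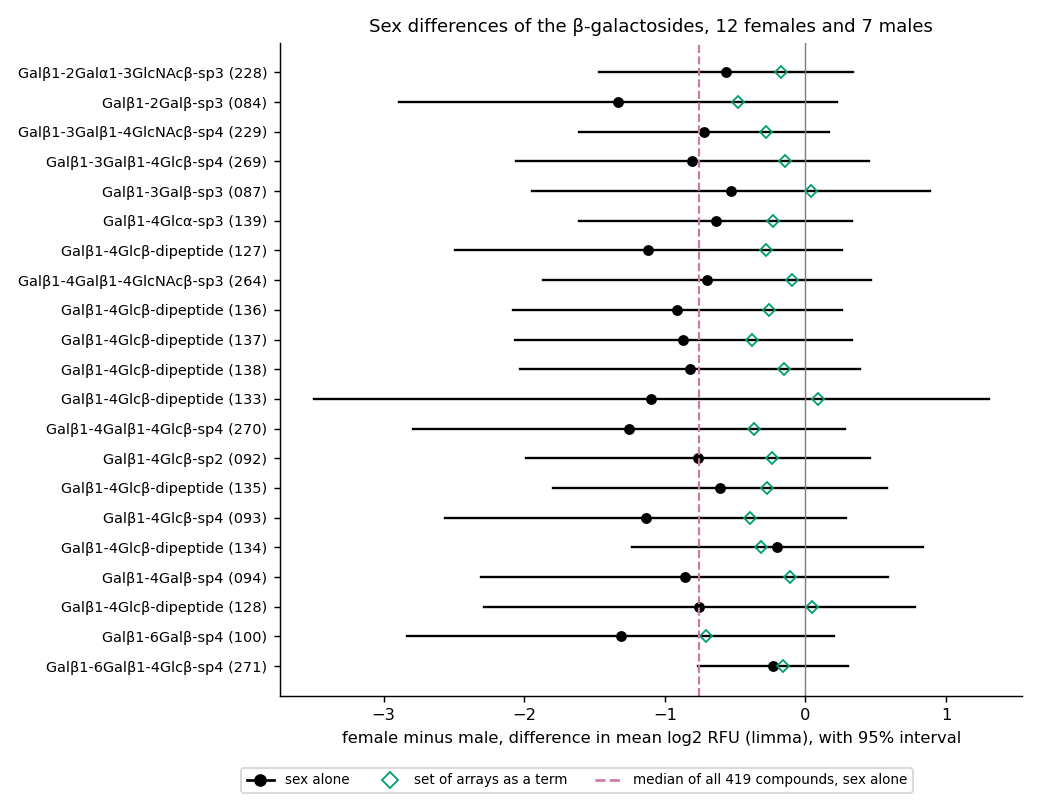
Female minus male difference in mean log2 RFU of the 21 members from limma, with 95% intervals (black), and with the set of arrays as a term (green diamonds), for 12 females and 7 males. The dashed line is the median of all 419 compounds, -0.75. Each black interval includes 0.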

How the data were processed

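The authors scanned each array with 1 dye and quantified it with ScanArray Express 4.00 (version per the file headers). The deposited intensity of a spot is its mean pixel value on the scanner's linear scale, with the local background, their difference and the percent of saturated pixels deposited beside it. The authors' table of the whole series holds medians and animal counts pooled over animals, which were not used, and the structures, which were. From the intensities, the median over 6 spots was taken with no scaling between arrays, as the methods set 1 fixed threshold. Values were raised to at least 100 RFU before log2. limma 3.58.1 (R 4.3.3, eBayes with trend) and permutation tests in Python 3.11.15 (numpy 2.4.6, scipy 1.17.1, pandas 2.3.3) were used, with figures by matplotlib 3.10.9. Intervals of shares are exact binomial at 95%. The number of spots limits precision, and spots of 1 array share the serum.

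Members and pairs were fixed by structure, but they and the lists were chosen with earlier results of these data known. Every member is named, values of each mouse are given for compounds with a median of 4000 RFU or 3 bound mice (for a dipeptide form, in part as a range) and for their isomers on the same chain and spacer, and outside compounds only as partners. GlcNAcβ1-6GalNAcα-sp3 and its place, and the relations of Galβ-sp3 to the 1-6 digalactose, were added after the values were seen. Of 33 pairs, the 3 with the unmatched member could not be measured. For 19 mice, the sign-flip test called 80.0% of 200 simulated differences of 1 log2 unit and 6.0% of 200 simulated without a difference. Those calls were made without adjustment over pairs, and with the median spread of single compounds between mice. The paired differences themselves had standard deviations from 0.45 to 2.14 in log2 RFU, so the rates do not describe the adjusted calls above. How saturation, the raising of faint values and the sets of arrays change the rates was not tested. On simulated arrays, limma called 57.4% of 68 compounds shifted by 2 log2 units between the sexes. All shifts there, of 1, 2 or 4 units, were upward in females, 219 compounds were left unshifted, and noise was drawn separately for each compound. In the data 1.67% of compounds passed, so the simulated rate need not hold for them.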

Additional observations from a re-analysis of the deposited data

Results flagged for a closer look

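Among the 7 males, each member was examined for a mouse far from the others, as the gap to the nearest mouse over the whole range on the log2 scale, with a limit of 0.568 that chance passes in about 1 in 20 groups. Of the 21 members, 2 passed, and other compounds were not examined in this way. The 1-6 digalactose had its lowest male in male 7, at 1055 RFU (ratio 0.579), the only male in which it was not bound. Male 7 belongs to the higher-ratio set, which holds 2 of the 7 males. In that set 4 of 9 mice bound this compound, and the ratio takes no account of the sets. The 1-6 galactosyllactose had its lowest male in male 4, at 39223 RFU (ratio 0.879), where its 6 spots ran from 30095 to 51638 RFU and the other 6 males lay between 59339.5 and 62817 RFU. Of its 114 spots over all mice, 90 held saturated pixels, and a range cut at the top of the scale makes this ratio larger.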

How the results depend on the processing

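Compounds were paired within mice, but no mouse could be paired with another, because the labels give each a number of its own. The replicate numbers used here follow accession order and pair no mice. Every pair that holds the 1-6 galactosyllactose or the 1-6 digalactose kept its direction and its call under all alternatives run, females only and males only included. Of the 30 pairs, 20 passed, and 15 to 22 did so under the alternatives except for males only, where 11 did and fewer mice were tested. Of the other 13 pairs that passed, 10 lost their call under at least 1 alternative, among them the 1-3 against the 1-4 galactosyllactose on the higher-ratio arrays, in females and in males. Some differences changed sign, and the cause was not tested: most had not passed, but that of the β and α 1-3 galactosyllactoses had, at -1.21, and those of the dipeptide forms with medians of 1096 and 917.5 RFU passed on each set of arrays with opposite signs. Below, the dipeptide forms are named by their medians and compared with lactose-sp4. The mean of spots gave -0.016 for the form of 1392.5 RFU and -0.012 for that of 917.5 RFU. For Galβ1-4Galβ1-4GlcNAcβ-sp3 minus LacNAc-sp3, normexp gave 0.0054, both copies of the shared array 0.00032 and log2(RFU + 500) 0.020. Leaving out spots not found gave -0.11 for the 1-4 digalactose minus lactose-sp4. The higher-ratio arrays alone gave 0.36 for lactose-sp2 minus lactose-sp4 and -0.11 for the form of 735 RFU. The lower-ratio arrays alone gave -0.20 for the 1-3 minus the 1-2 digalactose, -0.79 for the form of 1096 RFU, -0.51 for that of 917.5 RFU, 0.13 for the β minus the α 1-3 galactosyllactose and 0.30 for the LacNAc pair. Females alone gave 0.098 for lactose-sp2 minus lactose-sp4. Males alone gave -0.19 for the 1-3 minus the 1-2 digalactose, -0.048 for the 1-4 digalactose minus lactose-sp4, -0.12, -0.012 and -0.18 for the forms of 1392.5, 1096 and 917.5 RFU, and 0.32 for the LacNAc pair. The sex difference changed sign with quantile normalization for 13 of 21 members, among them the 1-3 digalactose (0.43) and the form of 1096 RFU (0.74). With the set of arrays as a term it was 0.089 for the form of 735 RFU, 0.048 for that of 1392.5 RFU and 0.038 for the 1-3 digalactose. Compounds past the limma threshold for sex numbered 7, but 2 with local background subtracted, 1 with quantile normalization, 3 with neither copy, 1 with signals raised to the buffer and 2 with the set as a term. At 2000 RFU, 10 members were bound in at least 1 mouse. The share of all compounds at that level is not given here, so this count cannot be set against it. Saturation limits the 1-6 galactosyllactose from above, and the buffer limits the faint members, with 153 of 361 measurements outside the 1-6 linkage at or below it.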
